A study of Mus musculus with 12 samples.

Results

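Cxcl9, Cxcl10 and Cxcl11 are the chemokines that bind the receptor CXCR3, and their RNA was followed in cerebral vessels of the mouse forebrain during acute systemic inflammation. The 3 genes were chosen by symbol, as interferon-induced CXC chemokines, from the 54119 genes to which the deposited transcript estimates could be summed. All mice were wild type C57BL6 of 2 to 3 months. They received LPS, a bacterial cell wall component, into the peritoneum at 10 mg/kg and were studied after 15 min, 30 min or 4 h, or they received PBS. Each of the 4 groups had 3 libraries, and each library pooled the vessels of 1 male and 1 female, so that sexes and single animals cannot be told apart and 6 mice stand behind each group. The vessels were freed from the homogenized forebrain by a dextran spin and a mesh after perfusion of the heart with PBS and removal of the meninges, and they still hold every cell type attached to the vessel wall.

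CXCR3 is carried mainly by activated T cells and NK cells, which follow its ligands into inflamed tissue. The ligands are classical targets of interferons: CXCL9 depends strongly on interferon-gamma, whereas CXCL10 also responds directly to NF-kappaB and interferon regulatory factors downstream of Toll-like receptors. Mice of the C57BL/6 background carry a frameshift in Cxcl11, so their Cxcl11 RNA encodes no full-length chemokine.

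The genes lie side by side on the minus strand of chromosome 5 in GRCm38 (GENCODE M21): Cxcl9 (ENSMUSG00000029417) at chr5:92321347-92328079, Cxcl10 (ENSMUSG00000034855) at chr5:92346638-92348889 and Cxcl11 (ENSMUSG00000060183) at chr5:92359544-92365485. The annotation calls Cxcl9 and Cxcl10 protein coding and Cxcl11 a polymorphic pseudogene. The promoters of Cxcl9 (chr5:92328030-92328329) and Cxcl10 (chr5:92348840-92349139) were in the RefSeq table (GRCm38.p6) and are shown because these genes differed in their early course. Each is 300 bases on the minus strand, 250 before and 50 after the annotated start, 5′ to 3′. Capitals mark matches to the interferon-stimulated response element (ISRE) core GAAANNGAA and to the NF-kappaB consensus.
Cxcl9: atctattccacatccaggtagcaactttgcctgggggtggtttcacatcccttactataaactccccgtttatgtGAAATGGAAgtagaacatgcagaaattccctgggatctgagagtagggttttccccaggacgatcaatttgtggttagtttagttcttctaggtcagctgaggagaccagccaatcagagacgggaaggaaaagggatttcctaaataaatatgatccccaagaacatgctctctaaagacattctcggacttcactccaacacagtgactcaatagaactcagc
Cxcl10: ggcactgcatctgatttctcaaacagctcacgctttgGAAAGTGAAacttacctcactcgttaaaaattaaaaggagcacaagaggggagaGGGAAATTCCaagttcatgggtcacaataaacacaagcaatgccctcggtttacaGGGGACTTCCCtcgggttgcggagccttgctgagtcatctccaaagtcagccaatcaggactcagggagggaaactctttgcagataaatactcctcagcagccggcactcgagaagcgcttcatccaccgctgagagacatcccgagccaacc

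Both windows held 1 match to the ISRE core, at -175 to -167 from the start of Cxcl9 and at -213 to -205 from the start of Cxcl10. Of 32851 promoter windows in the table, 8.56% held such a match. The Cxcl10 window also held 3 matches to the NF-kappaB consensus, at -159 to -150 and, overlapping each other, at -104 to -95 and -103 to -94. The share of all windows with an NF-kappaB match was 8.46%, and the Cxcl9 window held none. An AP-1 match (TGANTCA) was found in Cxcl10 at -74 to -68 and in Cxcl9 at 32 to 38 after the start, against 7.81% of all windows. Neither window matched the gamma-activated sequence TTCNNNGAA, which 8.3% of windows did, and TATAAA was found only in that of Cxcl9, at -195 to -190 (13.6% of windows). Both strands were searched, and a match is a string of letters, not a measured binding site. Only exact matches were counted, so a window without a match can still hold a site. Whether the matches bear on the course of the genes was not tested.

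Libraries held between 18.3 M and 25.9 M fragments (M, the prefix mega). Vessel cells were well represented: the summed level of 8 endothelial markers was 6138 to 6390 TPM (a level per transcript length, scaled to the same total in every library) in PBS and that of 6 pericyte markers 2426 to 2535 TPM. At LPS 4 h these sums were 1564 to 1608 TPM and 1126 to 1129 TPM. On the log2 scale of the edgeR fit with TMM factors, used for all fold changes here, 6 of the 8 endothelial markers were called lower and 1 higher at 4 h (median -1.22), but only 1 of the 6 pericyte markers was lower and none higher (median -0.06), so the lower pericyte sum in TPM was not a general fall on that scale. With library size only, 7 endothelial and all 6 pericyte markers were lower. RNA of other brain cells was also present in PBS. There, 4 oligodendrocyte markers summed to 248 to 260 TPM and 6 astrocyte markers to 243 to 248 TPM. The sums were 163 to 172 TPM for 4 neuron markers and 59.1 to 60.4 TPM for 7 microglia markers. The 6 neutrophil markers summed to 13.2 to 19.3 TPM in PBS, with Ly6g at 0, and to 567 to 592 TPM at LPS 4 h, and the 5 monocyte markers to 27.6 to 33.7 TPM and 105.0 to 115 TPM. All 5 neutrophil markers tested and 4 of the 5 monocyte markers were called higher. The 10 T cell and NK cell markers summed to 10.3 to 13.02 TPM in PBS and 22.2 to 27.4 TPM at LPS 4 h, but only 2 of the 8 tested were called higher, Gzmb (6.09) and Trac (1.88), and 1 lower, Cd3e (-2.63), these 3 named after their values were seen. Over all genes tested, 19.0% were called higher and 13.8% lower at 4 h, and the T cell and NK cell counts are near these shares. With library size only, 2 of the T cell and NK cell markers were higher and 3 lower. In bulk RNA, more or fewer cells of a type and more or less RNA per cell cannot be told apart, and the part of these differences in the results below was not tested.

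In vessels of PBS mice, the ligands were low. Cxcl10 stood at 2.90, 3.38 and 4.35 TPM in the 3 libraries, Cxcl11 at 0.688, 0.83 and 0.621 TPM, and Cxcl9 at 0.0223, 0.0801 and 0.177 TPM. On this scale per length the order was Cxcl10, Cxcl11, Cxcl9, with no overlap between neighbours. Cxcl9 rested on 1, 4 and 8 fragments, so its level in PBS is known only roughly.

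**Figure D1:**
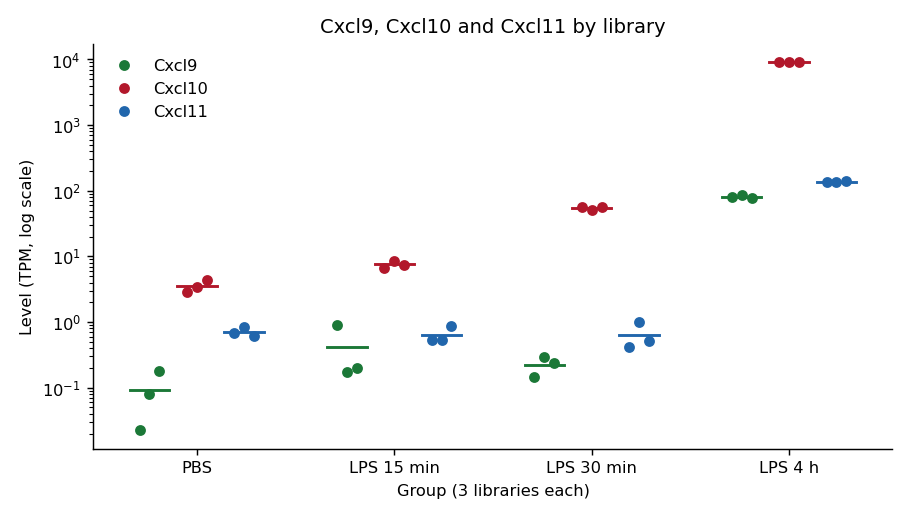
Level of each ligand in every library, in TPM on a log scale, with points for the 3 libraries of each group and lines for their mean. Cxcl10 rises in every step and reaches 9018 TPM at LPS 4 h, whereas Cxcl9 and Cxcl11 stay below 1 TPM in every library until LPS 4 h, when they average 81.1 and 137 TPM.

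Cxcl10 was the only ligand of the 3 past the test at 15 min. Its level was 6.77, 8.62 and 7.43 TPM in the LPS 15 min libraries, all above the highest PBS library. The log2 fold change against PBS was 1.19 ± 0.0986 (SE from edgeR, n = 3 libraries per group), a 2.29-fold rise. Its adjusted p was 2.22e-05 by edgeR's test for a change beyond 1.5-fold. DESeq2 gave a larger SE of 0.138, and the SE from edgeR used here can understate the error. At this time 3.31% of the 19150 genes tested were called higher. The call was lost when 10 was added to the deposited normalized counts before limma's test (0.95, adjusted p = 0.107), while DESeq2 gave 1.17 with an adjusted p of 0.000946.

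Cxcl9 was carried by 7, 7 and 9 fragments at LPS 15 min, and its value against PBS, 0.85 ± 0.502 on the log2 scale, did not pass (adjusted p = 1, edgeR). It was 0.42 without PBS library 1 and 1.65 without PBS library 3, and did not pass in either. The 95% interval from DESeq2 ran from -0.13 to 1.84, so these counts cannot tell no change from a rise of the size seen for Cxcl10. Cxcl11 had 23, 11 and 23 fragments, beside 24, 27 and 15 in PBS, and its log2 value was -0.16 (SE 0.274, adjusted p = 1, DESeq2 interval -0.70 to 0.34).

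At 30 min, Cxcl10 had moved further. It stood at 56.6, 50.1 and 55.7 TPM, and no library overlapped with those of 15 min. The log2 fold change was 4.20 ± 0.0665 against PBS (18.3-fold, adjusted p = 1.76e-22, edgeR), and 3.00 ± 0.057 against LPS 15 min (8.02-fold, adjusted p = 3.26e-20). Of all genes tested, 3.78% were called higher against PBS and 2.69% higher than at 15 min. With scaling by library size only, 61.4% instead of 82.6% of calls against PBS were higher, and 37.2% instead of 57.9% of those against 15 min, with the median of all genes at -0.17 and -0.14, and both changes of Cxcl10 were still called. Cxcl10 ranked at position 72 of the 19150 genes by its fold change against PBS.

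Cxcl9 at 30 min had 7, 14 and 11 fragments (0.147, 0.289 and 0.234 TPM), which overlapped with PBS. Its log2 fold change of 1.53 ± 0.462 missed the test (adjusted p = 0.161, edgeR) and passed when the 1.5-fold limit was dropped (adjusted p = 0.0116) or when PBS library 3 was left out (2.32, adjusted p = 0.0282). DESeq2 gave an interval of 0.62 to 2.49. For Cxcl11, 27, 27 and 12 fragments gave 0.26 ± 0.265 on the log2 scale (adjusted p = 1, edgeR), with a DESeq2 interval of -0.25 to 0.75.

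The separation of Cxcl10 from the other two was also measured within each library, as a log2 ratio of TPM plus 0.1, which nearly cancels the scaling of libraries. From PBS to LPS 30 min the ratio of Cxcl9 to Cxcl10 moved from -4.30 ± 0.305 to -7.41 ± 0.417 (SD, n = 3), and that of Cxcl11 to Cxcl10 from -2.15 ± 0.411 to -6.28 ± 0.656. Groups did not overlap in either ratio. The added 0.1 was larger than Cxcl9 itself in PBS libraries 1 and 2 (0.0223 and 0.0801 TPM). The PBS values of ratios with Cxcl9, their SD and the size of their change thus depend on the amount added. Each had an exact two-sided permutation p of 0.1, the smallest that 3 against 3 libraries allow, and 0.129 after adjustment over 9 such tests. The ratio of Cxcl9 to Cxcl11 changed by 1.01 over the same step, with overlap (exact permutation p = 0.2, adjusted 0.225).

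At 4 h, all 3 ligands rose. Cxcl10 stood at 9021, 9031 and 9002 TPM, Cxcl11 at 138, 136 and 139 TPM, and Cxcl9 at 80.0, 87.0 and 76.4 TPM. The order Cxcl10, Cxcl11, Cxcl9 per length was that of PBS, again without overlap between neighbours. Cxcl10 took 0.644% to 0.655% of the fragments of a library that were summed to genes. It ranked at position 16 or 17 among the 23152 to 23665 genes with a TPM above 0. Cxcl11 ranked between 748 and 757, and Cxcl9 between 1140 and 1321.

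The log2 fold changes against PBS were 12.18 ± 0.0535 for Cxcl10 (4636-fold, adjusted p = 5.02e-34), 10.59 ± 0.124 for Cxcl9 (1537-fold, adjusted p = 2.21e-26) and 8.40 ± 0.097 for Cxcl11 (337-fold, adjusted p = 1.85e-26), all by edgeR. In this comparison 19.0% of all genes tested were called higher and 13.8% lower. Among the 19150 changes those of Cxcl10, Cxcl9 and Cxcl11 ranked 5, 16 and 45 from the highest, and 2, 6 and 22 of the genes above them had no fragment in PBS. The value of Cxcl9 was 11.37 without PBS library 3, which moves its fold by over 1.5 times, and 10.15 to 10.61 when any other single library was left out, while limma with 10 added to the normalized counts gave 8.63, all still called. DESeq2 gave wider errors, with an SE of 0.404 for Cxcl9, whose PBS level rests on 13 fragments, 0.115 for Cxcl10 and 0.183 for Cxcl11. Scaling by library size alone put the median change of all genes at -0.71 on the log2 scale and lowered the ligands to 11.48, 9.89 and 7.69, all still called, while only 18.2% of calls were then higher instead of 58.0%.

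Measured from LPS 30 min, the rises at 4 h were 7.98 ± 0.0406 for Cxcl10 (adjusted p = 1.74e-32), 9.05 ± 0.111 for Cxcl9 (9.08e-26) and 8.13 ± 0.0978 for Cxcl11 (6.43e-26) on the log2 scale, where 16.9% of genes tested were called higher. The calls for Cxcl9 and Cxcl11 thus fell between 30 min and 4 h, and Cxcl10 was called in each of the 3 steps. With scaling by library size only, 21.7% of calls in this comparison were higher instead of 58.9%, and the median of all genes was -0.58. Within libraries, the ratios between the ligands did not settle a difference over this last step: those of Cxcl9 to Cxcl10, Cxcl11 to Cxcl10 and Cxcl9 to Cxcl11 changed by 0.62, 0.24 and 0.38, and all 3 changed sign when 0.5 in place of 0.1 was added to TPM.

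**Figure D2:**
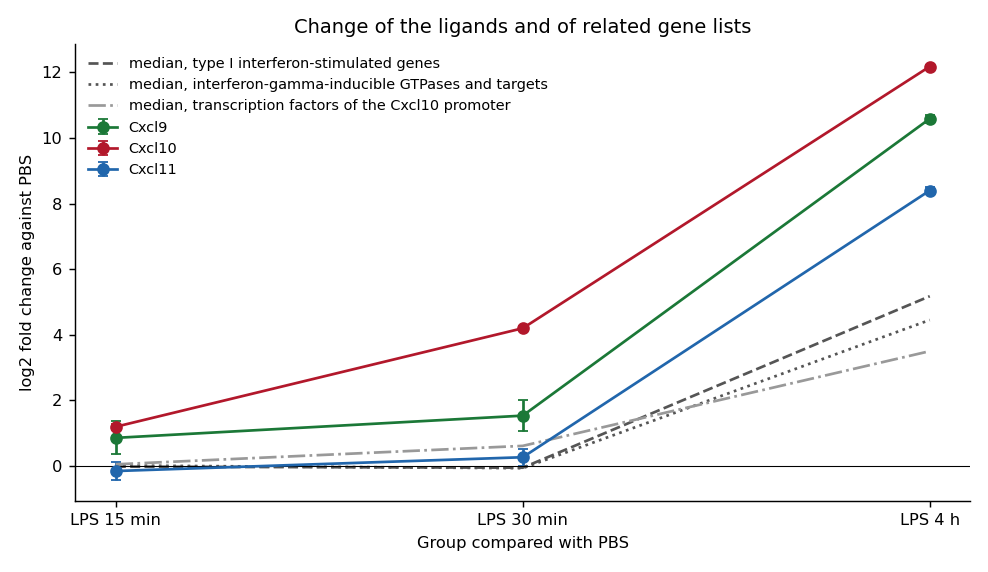
The log2 fold change of each ligand against PBS at each of the 3 times after LPS, with bars for the SE. Broken lines give the median change of 3 gene lists. The SE is that of edgeR and can understate the error. Cxcl10 is at 4.20 at 30 min, when the medians of both interferon target lists are at -0.05 and -0.07, and all 3 ligands lie above the medians of these lists at 4 h.

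Which transcripts carried the counts differed between the genes. Cxcl9 was carried by its coding transcript Cxcl9-201, which took 99.9% ± 0.095 (SD, n = 3) of its fragments at LPS 4 h. The intron-retaining Cxcl9-202, of 370 bases, was given 1.72 fragments in LPS 15 min library 1, and because it is short this raised the level of Cxcl9 to 0.891 TPM there, beside 0.173 and 0.196 TPM in libraries 2 and 3. The same library stood at 30.4 in the deposited normalized counts, where the other 2 had 5.60 and 6.63.

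Cxcl10 was carried mainly by the spliced coding transcript Cxcl10-201, with 84.5% ± 3.19 of its fragments at LPS 15 min and 96.8% ± 0.0904 at LPS 4 h. Cxcl10-204 is a single exon of 2230 bases that runs across the introns and covers nearly the whole gene. It was given 0 fragments in every PBS library, which with 161 Cxcl10 fragments in the group allows a share of up to 1.86%, for counting error only. It took 21.9, 6.98 and 13.9 fragments at 15 min, 87.0, 102 and 57.3 at 30 min, and 3180, 3583 and 3538 at 4 h. Its mean share of Cxcl10 fragments after LPS was 11.99% ± 6.09 by 15 min, 9.96% ± 2.58 by 30 min and 2.67% ± 0.052 by 4 h. The libraries of 15 min and 30 min overlapped in this share, while all libraries of 4 h lay below those of 30 min and above those of PBS.

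Cxcl11 fragments were divided between Cxcl11-201, which the annotation types as coding, and the longer Cxcl11-202, typed as polymorphic pseudogene. At LPS 4 h, 68.8% ± 1.87 of fragments went to Cxcl11-201 and 31.2% ± 1.87 to Cxcl11-202. At the earlier times 11 to 27 fragments per library were too few to divide, and the share of Cxcl11-201 ran from none of 27 in LPS 30 min library 1 to all in 2 other libraries.

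**Figure D3:**
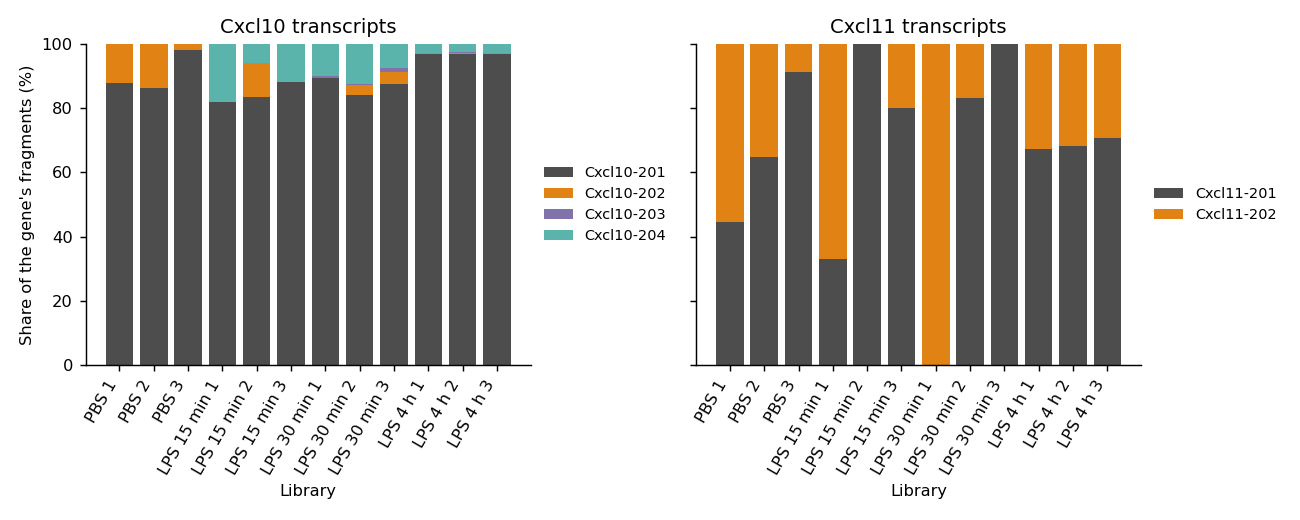
Share of the fragments of Cxcl10 (left) and Cxcl11 (right) given to each annotated transcript in every library, in percent. Cxcl10-204 is given no fragment in PBS and averages 11.99%, 9.96% and 2.67% in the LPS groups, and the division of Cxcl11 is alike in all 3 libraries only at LPS 4 h. Cxcl10-202 averages 9.34% in PBS and 0.33% at LPS 4 h. The division of fragments between Cxcl10-202 and Cxcl10-204, which overlap, is an estimate whose error was not tested.

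Reads of genes on the other strand cannot be separated by strand, since the library kit does not mark it. Art3, an ADP-ribosyltransferase gene on the plus strand, spans Cxcl10 and Cxcl11, and its transcript Art3-214 shares 133 exon bases with Cxcl10. It held 17.3, 15.0 and 7.14 fragments at LPS 4 h, against 116955 to 137029 for Cxcl10. The processed pseudogene Gm2673 shares 1582 exon bases with Cxcl11 and was given 0 fragments in all libraries.

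The listed neighbours of the cluster showed smaller values than the ligands. U90926, a protein-coding gene between Uso1 and Ppef2, was not on the list. At 4 h, 6 of the 8 genes listed were called higher and none lower, beside 19.0% and 13.8% of all genes tested. Their median was 0.85 on the log2 scale, where the median of all genes was -0.01. Sdad1 (1.64 ± 0.068), a nucleolar protein gene, lies beside Cxcl9, and Nup54 (1.56 ± 0.0699), which encodes a nuclear pore subunit, lies beyond Cxcl11. G3bp2 (1.06), Scarb2 (0.88), Uso1 (0.83) and Art3 (0.77) also passed, while Ppef2 (0.74) and Naaa (0.56) did not. With scaling by library size only, 2 of the 8 were called higher and the median was 0.15. None was called at 30 min, when Ppef2 was nearest to passing (1.16, adjusted p = 0.0556, edgeR).

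**Figure D4:**
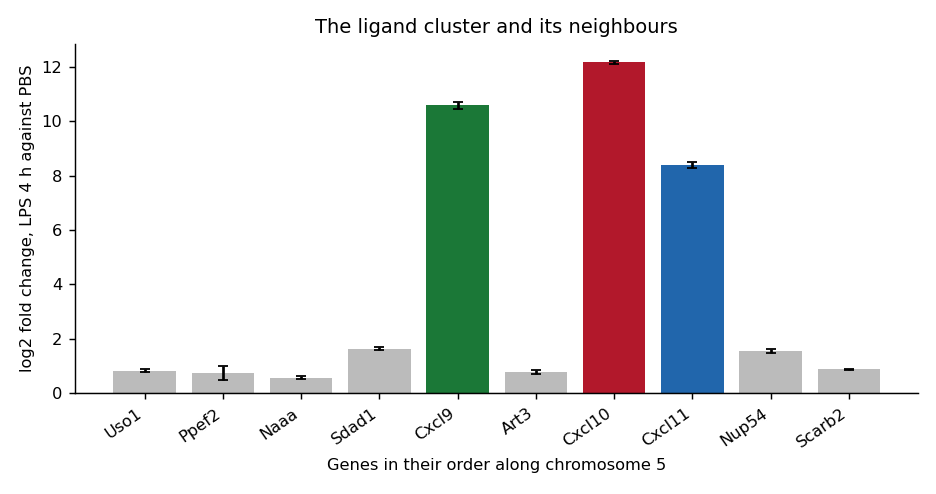
The log2 fold change at LPS 4 h against PBS for the ligands and the listed genes within the same stretch of chromosome 5. They are in gene order, with bars for the SE of edgeR, which can understate the error. Cxcl9, Cxcl10 and Cxcl11 stand at 8.40 or above and their listed neighbours at 1.64 or below.

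The receptor itself was scarce. Cxcr3 had 15, 25 and 22 fragments in the PBS libraries, 19, 3 and 20 at 15 min, 9, 4 and 6 at 30 min and 0 in all 3 libraries at 4 h. Against a floor of 3 counts over the group it was at least 10.7-fold lower at 4 h than in PBS (adjusted p = 0.000322, edgeR), and a count of 0 limits the RNA in these libraries, not the number of cells that carry it. Of the T cell and NK cell markers tested, 2 of 8 were higher and 1, Cd3e, was lower at this time. These counts are near the shares of all genes tested, 19.0% and 13.8%.

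The list of Cxcr3, its further ligands and the genes that trap or cut chemokines held 8 genes. Of the 7 that could be tested, 3 rose and 2 fell at 4 h, Cxcr3 being 1 of those that fell, with a median of -0.00. Over all genes 19.0% were higher and 13.8% lower. Ackr1, a chemokine-binding receptor of venules that does not signal, averaged 16.6 TPM in PBS, then 210.5 TPM by 30 min and 1448 TPM by 4 h. It rose with Cxcl10 at every time, by 1.03 at 15 min, 3.95 at 30 min and 7.34 at 4 h on the log2 scale. Ackr3, which scavenges CXCL11 and CXCL12, was higher at 4 h (1.19), as was Pf4 (0.92), a platelet chemokine and weak CXCR3 ligand, but neither was with scaling by library size alone. Dpp4, the protease that trims the N-terminus of these chemokines, fell by 1.22. Ackr2 (-0.84) and Ackr4 (-0.00) did not pass, and Ccl21a was below the filter with 7 fragments in PBS and 2 at 4 h over the 3 libraries.

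Interferon transcripts were near the limit of detection. Ifng had 0 fragments in every PBS library, 3, 1 and 0 at 15 min, 1, 8 and 1 at 30 min and 4, 6 and 9 at 4 h. Ifnb1 had 0 in PBS and at 15 min, 1 in a single library at 30 min and 2, 1 and 1 at 4 h. Ifna2 had 1 fragment over all libraries, and Ifna4, Ifna5, Ifnl2 and Ifnl3 had none in any library. Of the cytokines upstream of interferon-gamma, Il12b rose from 0 in PBS to 136, 183 and 142 fragments at 4 h, at least 297-fold (adjusted p = 1.45e-11, edgeR), and Il27, an IL-12 family subunit, rose by 7.32. Il12a (1.22) and Il18 (0.47) did not pass.

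The machinery between these signals and the ligands was called in part at 30 min and more widely at 4 h. The counts that follow stand beside 3.78% of all genes called higher at 30 min and 19.0% at 4 h, so that none or 1 called among about 10 genes at 30 min is near the share of all genes. Of 10 interferon receptor and JAK-STAT genes none was called at 30 min (median -0.03), and 6 were higher at 4 h (median 1.53), from Stat2 (2.86), part of the complex that binds the ISRE, to the receptor subunit Ifngr2 (1.14). Of 11 genes of TLR4, the LPS receptor, and its TRIF branch, only the coreceptor Cd14 was called at 30 min (4.16), and 6 were higher at 4 h, up to 8.31 for Cd14 and down to 1.05 for Lbp, which carries LPS. With scaling by library size alone, 5 of each list were higher at 4 h, and 2 and 1 were lower.

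Among 12 transcription factors that act on the Cxcl10 promoter, 6 were already higher at 30 min (median 0.61) and all 12 at 4 h (median 3.50). Cebpb rose by 3.05 at 30 min and 5.32 at 4 h, and Irf2 showed the smallest rise at 4 h (2.39). Irf1, chosen after its values were seen, rose by 2.80 at 30 min and 3.36 at 4 h. Of 10 genes that restrain NF-kappaB or STAT signalling, 6 were higher at 30 min (median 2.09) and 9 at 4 h (median 4.24), from Socs3 (6.48) to Dusp1 (1.95), a phosphatase of MAP kinases.

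Interferon target genes were mostly called only at 4 h, against the same shares of all genes. Cxcl9 and Cxcl11 were also called only at 4 h, but few fragments limited their earlier tests, and Cxcl9 was at 1.53 at 30 min. Of 16 type I interferon-stimulated genes, none was higher and 1, the helicase gene Ddx60, lower at 30 min (median -0.05), and 16 were higher at 4 h (median 5.17), from the antiviral GTPase Mx1 (8.60) to Rtp4 (3.45). Of 17 interferon-gamma-inducible GTPases and targets, 2 were higher at 30 min, Gbp5 (1.15) and Tgtp1 (1.10), both chosen after their values were seen, and the median was -0.07. At 4 h 16 were higher (median 4.45), led by Cd274 (6.96), which encodes the checkpoint ligand PD-L1. Ciita, the master regulator of MHC class II genes, fell by 1.31.

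Other chemokines included genes with the early course of Cxcl10. Of 9 tested CXC chemokines of chromosome 5, 3 were higher at 30 min: Cxcl10, and Cxcl2 (9.84) and Cxcl1 (9.59), which attract neutrophils through CXCR2. Both were already higher at 15 min, by 5.73 and 5.92, beside 1.19 for Cxcl10. Ppbp, a platelet chemokine, was lower at 15 min (-1.59, adjusted p = 4.83e-06, edgeR) and at 30 min (-1.03, adjusted p = 0.0153, edgeR). It is the gene not called at 4 h (-0.21). At 4 h 8 of the 9 were higher, the 3 ligands among them, and Cxcl2 was highest (12.58). The median was 9.13, and 8.40 with Cxcl3, at 0 in PBS, set to its bound. Of 11 further attractants of T cells and NK cells, 5 were higher at 30 min: Ccl2 (4.81), and Ccl12 (4.64), Ccl7 (4.46), Ccl4 (3.60) and Ccl3 (2.57), where these 4, Cxcl1 and Ppbp were named after their values were seen. At 4 h 10 were higher (median 7.48), from Ccl2 (10.46), and Cxcl12, a constitutive chemokine of brain endothelium, fell by 3.18.

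Genes most like each ligand were found by the root mean square difference of log2(CPM + 1), CPM being counts scaled to library size with TMM factors, minus the PBS mean over the 12 libraries, among 19150 genes. Cxcl9 was nearest to Mx1 (0.32), Cxcl11 (0.37), the interleukin-1 receptor antagonist gene Il1rn (0.38), the cytokine gene Lif (0.39) and the protease gene Adamts4 (0.43). Cxcl11 was nearest to Il1rn (0.24), Adamts4 (0.29), Lif (0.30), Cd274 (0.32) and Ifit2 (0.34). Cxcl10 had no neighbour as close: Csf3, the gene of G-CSF, was at 0.61, and Lcn2 (1.30), the adhesion gene Selp (1.34), Ccl2 (1.40) and Serpina3f (1.49) followed. From Cxcl10 to Cxcl9 and Cxcl11 the differences were 2.56 and 2.85. The added 1 exceeds the mean CPM of Cxcl9 and Cxcl11 in every group before 4 h and flattens their course. On this scale their change at 4 h was 7.77 and 7.25, beside 10.59 and 8.40 in the edgeR fit. For Cxcl10 it was 11.59 beside 12.18. The differences above thus depend in part on the amount added. Adding 0.1 in place of 1 kept 4 of the 5 nearest genes for Cxcl10, 2 for Cxcl9 and 1 for Cxcl11.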

How the data were processed

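RNA-seq of cerebral vessels from 12 libraries, 3 per group, was taken as the authors deposited it. Per the labels, Salmon 1.2.1 and DESeq2 were used with build GRCm38.p6. The deposited files of the authors give estimated counts per transcript, not normalized, and TPM per transcript, scaled for length and to a constant sum. The deposited gene table of the authors holds a normalized signal, counts divided by size factors and transcript length factors. Libraries were amplified with a SMART-Seq v4 kit and carry no molecular identifiers, so limits from counts cover counting error only.

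Transcripts were joined to GENCODE M21 by identifier without version (139852 of 140948); the other 1096 held 0.482% to 0.85% of fragments per library and were left out. Sums per gene were rounded. Genes past filterByExpr (minimum count 10, total 15, share 0.7; 19150 genes) entered 1 quasi-likelihood fit of all 12 libraries with TMM factors in edgeR 4.0.16 under R 4.3.3. glmTreat tested each of 5 comparisons (each LPS time with PBS, and adjacent LPS times) for a change beyond 1.5-fold, with calls made below 0.05 after Benjamini-Hochberg adjustment across every gene tested. The SE is the log2 fold change divided by the root of the quasi-likelihood F, and can understate the error, not only for few counts. For Cxcl10 against PBS it was 0.0986, 0.0665 and 0.0535 in order of time, where DESeq2 gave 0.138, 0.119 and 0.115. For Cxcl10 at LPS 4 h against LPS 30 min it was 0.0406, where DESeq2 gave 0.0339. The 3 comparisons with PBS share its libraries. Fold changes of genes at 0 in a group were replaced by bounds from 3 counts over that group. On simulated counts with 200 genes changed by 2 on the log2 scale, 99.5% to 100% were recovered, with 0 false calls. The changed genes were drawn only from genes with a higher level in PBS than any of the ligands. This recovery therefore does not measure the power to detect early changes of the ligands.

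The ligands and gene lists were chosen with earlier results of these data known. Named are the ligands, all detected genes of the lists of CXCR3 ligand handling, interferon ligands and neighbours, the highest and lowest called change at 4 h of every other list, and the 5 genes most like each ligand. Ratios were tested with exact two-sided permutation tests (scipy 1.17.1). Alternatives were DESeq2 1.42.0, RLE factors, library size only, no filter, no fold limit, only the groups compared, a replicate block, limma 3.58.1 on the gene table plus 1 or 10, and leaving out each library. Replicate libraries came from separate pools of mice.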

Additional observations from a re-analysis of the deposited data

Results flagged for a closer look

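The effect of LPS differed between adjacent times by the test of the difference itself (edgeR, beyond 1.5-fold). Cxcl10 was higher at LPS 30 min than at LPS 15 min by 3.00 on the log2 scale (adjusted p = 3.26e-20). From LPS 30 min to LPS 4 h, Cxcl9 rose by 9.05 (adjusted p = 9.08e-26), Cxcl10 by 7.98 (1.74e-32) and Cxcl11 by 8.13 (6.43e-26), each in 3 of 3 libraries without overlap.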

How the results depend on the processing

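All 3 ligands were called higher at LPS 4 h, and Cxcl10 at 30 min, under all alternatives run. The cause of the following differences was not tested. Cxcl10 at 15 min was 0.95 and not called with limma and 10 added. Cxcl9 at 30 min (1.53) passed with no fold limit; leaving out single libraries gave 1.10 to 2.32, and it passed without PBS library 3. Without single libraries Cxcl9 was 0.42 to 1.65 at 15 min, not called, and 10.15 to 11.37 at 4 h, called. Cxcl9 from 15 to 30 min, never called, changed sign with limma (-0.24 with 1 added, -0.20 with 10), and Cxcl11 at 15 min ranged from -0.33 to 0.0402 when single libraries were left out, the latter without LPS 15 min library 2. Cxcl9 fell below the filter when only the groups compared entered at 15 and 30 min, so that no value was had there.

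With no fold limit, genes called higher numbered 3905, 3771 and 6680 against PBS in order of time, 3674 from 15 to 30 min and 6114 from 30 min to 4 h, and 6444 were lower at 4 h. Library size only gave 1907 higher and 8555 lower at 4 h and 1917 higher against 30 min. Limma gave 339, 476 and 309 higher with 1 added and 322, 444 and 289 with 10 for 15 min, 30 min and 30 against 15 min. List counts at 30 min with no fold limit were 1 for interferon ligands, 3 for JAK-STAT, 7 for TLR4, 5 and 6 for the type I and gamma targets, 8 for T cell attractants and 4 for neighbours. The neighbours had 1 call at 30 min with only the groups compared, and 0 to 1 without single libraries. With library size only, 1 gene of ligand handling and 2 neighbours were higher at 4 h.

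From 30 min to 4 h the ratios of Cxcl9 to Cxcl10, Cxcl11 to Cxcl10 and Cxcl9 to Cxcl11 were -0.55, -0.42 and -0.13 with 0.5 added to TPM, and that of Cxcl11 to Cxcl10 was -0.0069 to 0.61 without single libraries. As shares of TPM at 4 h, Cxcl9-201 was 97.7%, Cxcl10-204 1.13%, Cxcl11-201 85.6% and Cxcl11-202 14.4%. With 0.1 added to CPM, 2 of the 5 genes nearest to Cxcl9 and 1 of those nearest to Cxcl11 stayed.

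Replicate numbers did not pair the samples: deviations of same-numbered libraries correlated at -0.0489 to 0.0679 over 18 pairs. With a replicate block Cxcl10 at 4 h was 12.18 and 1 neighbour was called at 30 min; no call of a ligand changed. Low counts limit Cxcl9 and Cxcl11 before 4 h.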
